A study of Homo sapiens with 8 samples.

Results

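GATA2 occupancy was followed at 10 genes of androgen synthesis and conversion in VCaP, an established human cell line of castrate-resistant prostate cancer. The genes were HSD3B1, HSD3B2, HSD17B6, SRD5A1, SRD5A2, DHRS9, AKR1C1, AKR1C2, AKR1C3 and CYP17A1. GATA2 is a zinc-finger transcription factor. It was precipitated from fixed, sonicated chromatin and its sites were read by sequencing (ChIP-seq). All cells were kept without steroids for 72 h. Untreated cells (labelled as not treated, with a DMSO control named in the growth protocol) were compared with cells given 1 µM JQ1, a small molecule that blocks the acetyl-lysine pockets of BET proteins, for 24 h. Of 8 samples, 4 were GATA2 precipitates with a peak list each, 2 per treatment, and the other 4 were inputs. Nothing in the labels says whether replicates were separate cultures, so the spread between them may be technical.

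A peak was assigned to a gene when its summit lay within 50 kb of the gene's RefSeq span (GRCh38.p14, the build called hg38 in the labels). Overlapping peaks of the 4 lists were joined into regions. The 10 genes, of 20037 protein-coding genes, had 12 of 36122 regions. These came from 5 peaks of untreated replicate 1, 9 of untreated replicate 2, 5 of JQ1 replicate 1 and 14 of JQ1 replicate 2. The lists as a whole held 6902, 27373, 4974 and 32404 peaks in the same order, so those of replicate 2 were several times longer. A peak missing from a replicate 1 list is therefore weak ground for absence. Among loci of prostate luminal genes, KLK3, KLK2 and TMPRSS2 had a region in every list, while HOXB13 did not. Peak lists hold no expression values, so the labelled cell type could not be checked further.

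These enzymes sit at successive steps of one route. CYP17A1 makes the weak androgen precursor DHEA. HSD3B1 and HSD3B2 turn such precursors into androstenedione, and AKR1C3 reduces androstenedione to testosterone. SRD5A1 and SRD5A2 are the reductases that form dihydrotestosterone, the strongest natural ligand of the androgen receptor. AKR1C2 and AKR1C1 inactivate dihydrotestosterone by reduction, and HSD17B6 can oxidise the product of AKR1C2 back. DHRS9 is a related dehydrogenase that acts on retinoids and steroids. In prostate cancer cells deprived of testicular androgen, this route can supply androgens from adrenal precursors.

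GATA2 occupied HSD3B1, the precursor-converting enzyme, directly at its start. The gene lies on chromosome 1 at 119507203 to 119515058, on the plus strand. Its single region, chr1:119506965-119507272, was present in every list. The summit lay 69 and 67 bp before the span in the untreated lists and 55 and 54 bp before it in the JQ1 lists. A region common to the 4 lists within 1 kb of an annotated start was found at 41 of the 15843 coding genes with a listed start, or 0.259%, and HSD3B1 was the one such gene among those studied here.

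The sequence before the HSD3B1 start is shown because the peak lies on it, and that of HSD3B2 because it is the neighbouring copy of the gene with no peak at its start. Both run 5′ to 3′ on the plus strand over the 250 bases before the start, from RefSeq (GRCh38.p14), chr1:119506953-119507202 for HSD3B1 and chr1:119414681-119414930 for HSD3B2. Capitals mark GATA on either strand, and the whole motif where it was one of 4 motifs of 6 letters, namely AGATAA, its variant AGATAG, then TGATAA, or its variant TGATAG.
HSD3B1: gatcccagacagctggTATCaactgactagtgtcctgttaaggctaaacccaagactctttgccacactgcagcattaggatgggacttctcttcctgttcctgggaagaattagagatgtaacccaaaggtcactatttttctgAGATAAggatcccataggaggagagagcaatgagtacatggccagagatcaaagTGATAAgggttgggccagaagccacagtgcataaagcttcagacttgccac
HSD3B2: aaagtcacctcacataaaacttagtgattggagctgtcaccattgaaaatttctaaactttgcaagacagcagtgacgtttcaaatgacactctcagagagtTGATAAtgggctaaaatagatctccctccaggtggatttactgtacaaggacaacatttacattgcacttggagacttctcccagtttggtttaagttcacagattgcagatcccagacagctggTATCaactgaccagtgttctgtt

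Both 6-letter motifs of HSD3B1 lay under the peak in all lists. AGATAA stood at −105 to −100 from the start and TGATAA at −51 to −46, both on the strand of the gene. The centre of TGATAA was 20.5 and 18.5 bp from the untreated summits and 6.5 and 5.5 bp from the JQ1 summits. The centre of AGATAA was 33.5 and 35.5 bp from the untreated and 47.5 and 48.5 bp from the JQ1 summits. The summits thus fell between both motifs, nearer to TGATAA. Of 22078 windows of this length before coding starts, 17.9% held a 6-letter motif and 39.9% held GATA. Among the 14 windows with the summit of a region common to all lists, 10 held a 6-letter motif and 13 held GATA. HSD3B1 itself, with 2 annotated starts, gave 2 of these 14 windows, which overlap and both hold the motifs. These matches describe letters and do not show which bases were bound.

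**Figure D1:**
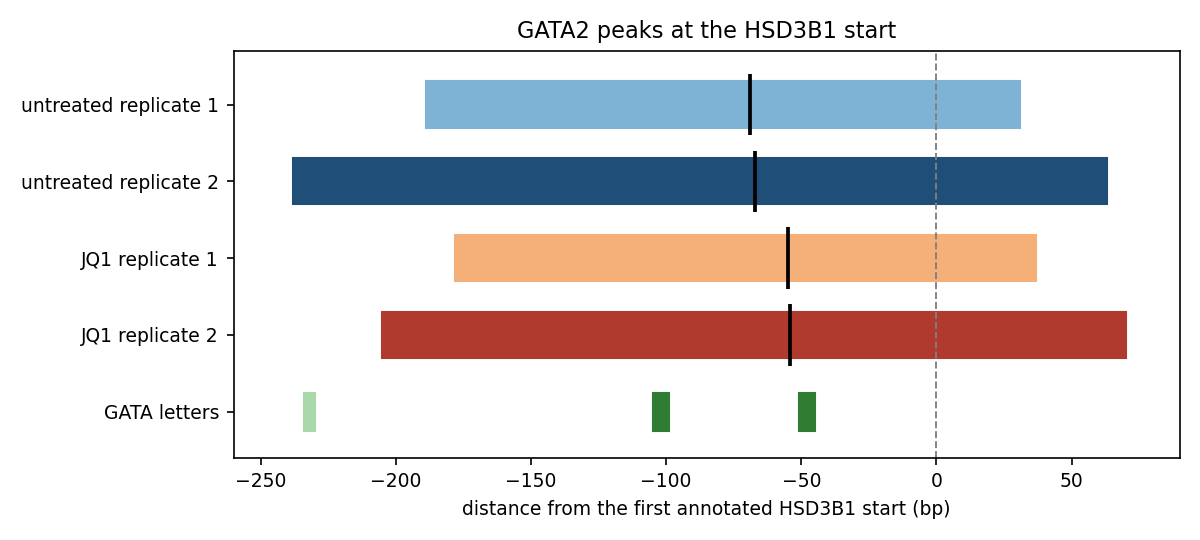
Peak intervals (bars) and summits (black lines) at HSD3B1 in the 4 lists, by distance in bp from the first annotated start (dashed line), with 6-letter motifs (dark green) and a further GATA (light green). All 4 summits lie between the motifs at −105 and −51.

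The strength of the HSD3B1 peak did not move one way with JQ1. The authors' fold enrichment over local background was 11.8 in untreated replicate 1, 11.7 in untreated replicate 2, 8.08 in JQ1 replicate 1 and 16.0 in JQ1 replicate 2. The −log10 q-values were 23.0, 33.5, 11.0 and 38.6 in the same order. Both untreated folds lay between the JQ1 folds. In its own list the peak stood in the top 15.7%, 22.3%, 34.7% and 15.6%. Among the regions common to all lists it ranked lower by p-value, in the top 30.3%, 84.3%, 47.2% and 74.9% in the same order.

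HSD3B2, the adrenal and gonadal form of the enzyme, had no peak at its start. Its span is chr1:119414931-119423034, and its window held TGATAA at −148 to −143. A run of 27 identical bases stood at −250 to −224 in HSD3B1 and at −39 to −13 in HSD3B2. Where the HSD3B2 counterpart of the bound HSD3B1 stretch lies was not tested. No run of 75 bases, the read length, was shared between both windows. HSD3B2 had 2 regions, each in both replicate 2 lists and in neither replicate 1 list. The first, 40.4 kb before the span and inside the oxidase gene HAO2, had a fold of 5.96 untreated and 7.25 with JQ1. The second, 19.6 kb past the span and inside the pseudogene HSD3BP2, had 3.67 untreated and 10.9 with JQ1. That is a log2 ratio of 1.57, and 99.2% of the 21173 regions found in both replicate 2 lists had a lower one. It rests on 1 list per treatment and was singled out after its values were seen.

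**Figure D2:**
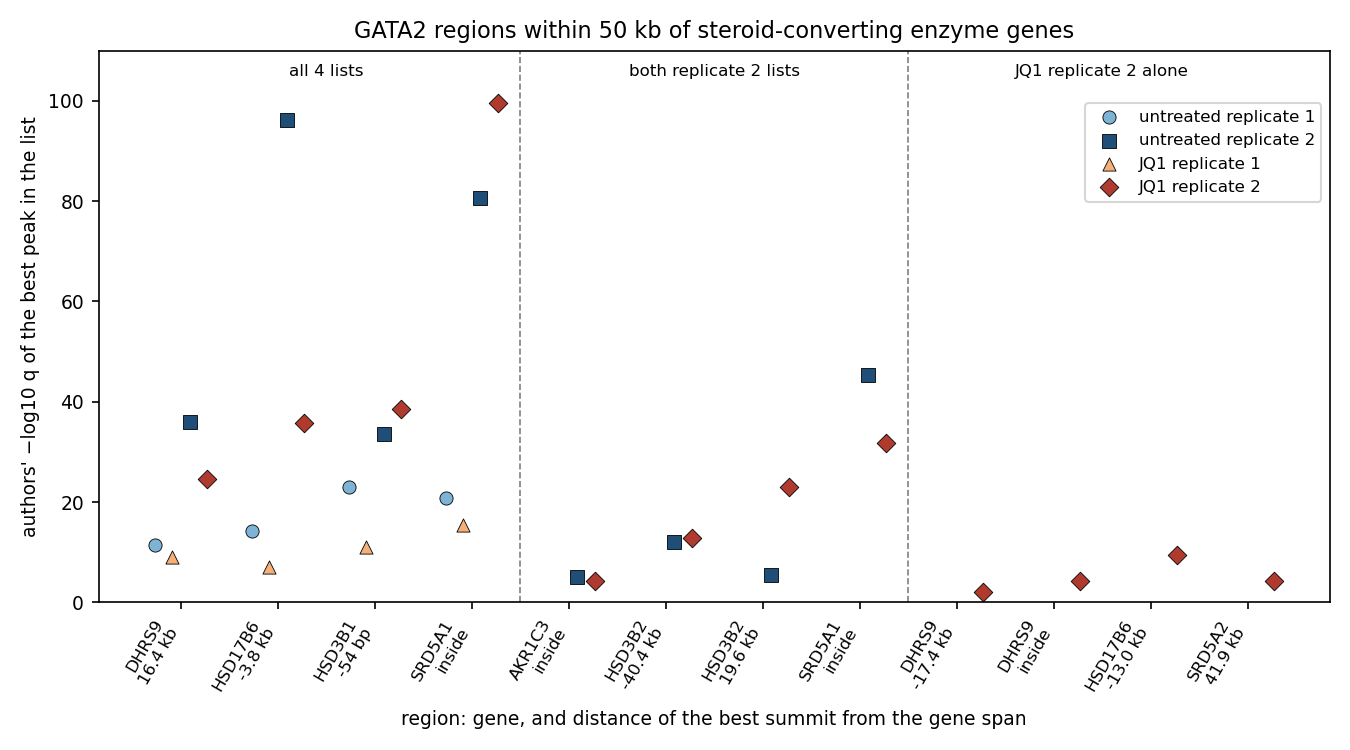
The authors' −log10 q (vertical axis) of the best peak in each list for the 12 regions, labelled by gene and by the distance of the best summit from the gene span. Regions in all 4 lists stand on the left, those in both replicate 2 lists in the middle and those in JQ1 replicate 2 alone on the right, where values run from 2.02 to 9.46.

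HSD17B6, which restores dihydrotestosterone from a reduced form, had the widest region. It spanned 706 bp, chr12:56759214-56759919, and was present in every list. The gene covers chr12:56763324-56787790, so the region lies about 3.8 kb below the lower end of the span. Each list had a pair of summits there, 250 and 219 bp apart untreated and 206 and 197 bp apart with JQ1. JQ1 replicate 2 had a further weak summit in the same interval.

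Both HSD17B6 summits had a lower fold in the JQ1 list of each replicate. At the outer summit, farther from the gene, the fold was 4.51 and 26.2 untreated and 3.67 and 10.8 with JQ1. At the inner summit it was 5.76 and 23.0 untreated and 5.02 and 7.03 with JQ1. The groups overlapped, since replicate 2 exceeded replicate 1 under either treatment. JQ1 over untreated was −0.30 and −1.28 on the log2 scale at the outer summit and −0.20 and −1.71 at the inner one, in replicates 1 and 2. The difference was thus larger in replicate 2 than in replicate 1.

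Set against the 3236 regions common to all lists, HSD17B6 was ordinary in replicate 1 and low in replicate 2. At the best summit of each list, 47.7% of these regions had a lower ratio in replicate 1 and 4.60% in replicate 2. In 88 regions, or 2.72%, HSD17B6 included, the ratio was at least as low in both replicates. Its rank by p-value among the common regions was the top 52.8% and 28.7% in the untreated lists and the top 72.7% and 78.2% in the JQ1 lists. This ranking, chosen after the data were seen, uses the same regions in each list. A fold lower with JQ1 in both replicates was common, being found at 37.7% of these regions, and the median log2 ratio was −0.16 in each replicate. The lists give no read totals, and the part of depth in these ratios was not tested. A second HSD17B6 region, 13.0 kb from the span and inside the primase gene PRIM1, was in JQ1 replicate 2 alone, with a fold of 5.83.

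SRD5A1, the reductase form that dominates in castrate-resistant tumours, had both of its regions inside the gene. It lies on the plus strand at chr5:6633440-6674386. The region near the far end, chr5:6669347-6669781, was in all lists with its best summit 36.1 kb after the start. Its fold was 7.43 and 20.7 untreated and 7.31 and 24.7 with JQ1, and its −log10 q was 20.8 and 80.6 untreated and 15.5 and 99.5 with JQ1. Each JQ1 fold was near the untreated fold of its replicate, with log2 ratios of −0.02 and 0.25. Among the common regions it ranked in the top 35.2% and 39.7% untreated and 29.4% and 22.3% with JQ1. It was the strongest of the 12 regions in JQ1 replicate 2.

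The other SRD5A1 region, chr5:6640643-6640912, lay 7.33 kb after the start and was in both replicate 2 lists only. Its fold was 14.7 untreated and 10.2 with JQ1, and it stood in the top 15.2% and 19.7% of those lists. By q-value it was the strongest of these genes’ regions without a replicate 1 peak in both of these lists. The 250 bases before the SRD5A1 start held no GATA on either strand, and neither did those of SRD5A2. The reference table gives no exons, so that introns and exons could not be told apart.

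**Figure D3:**
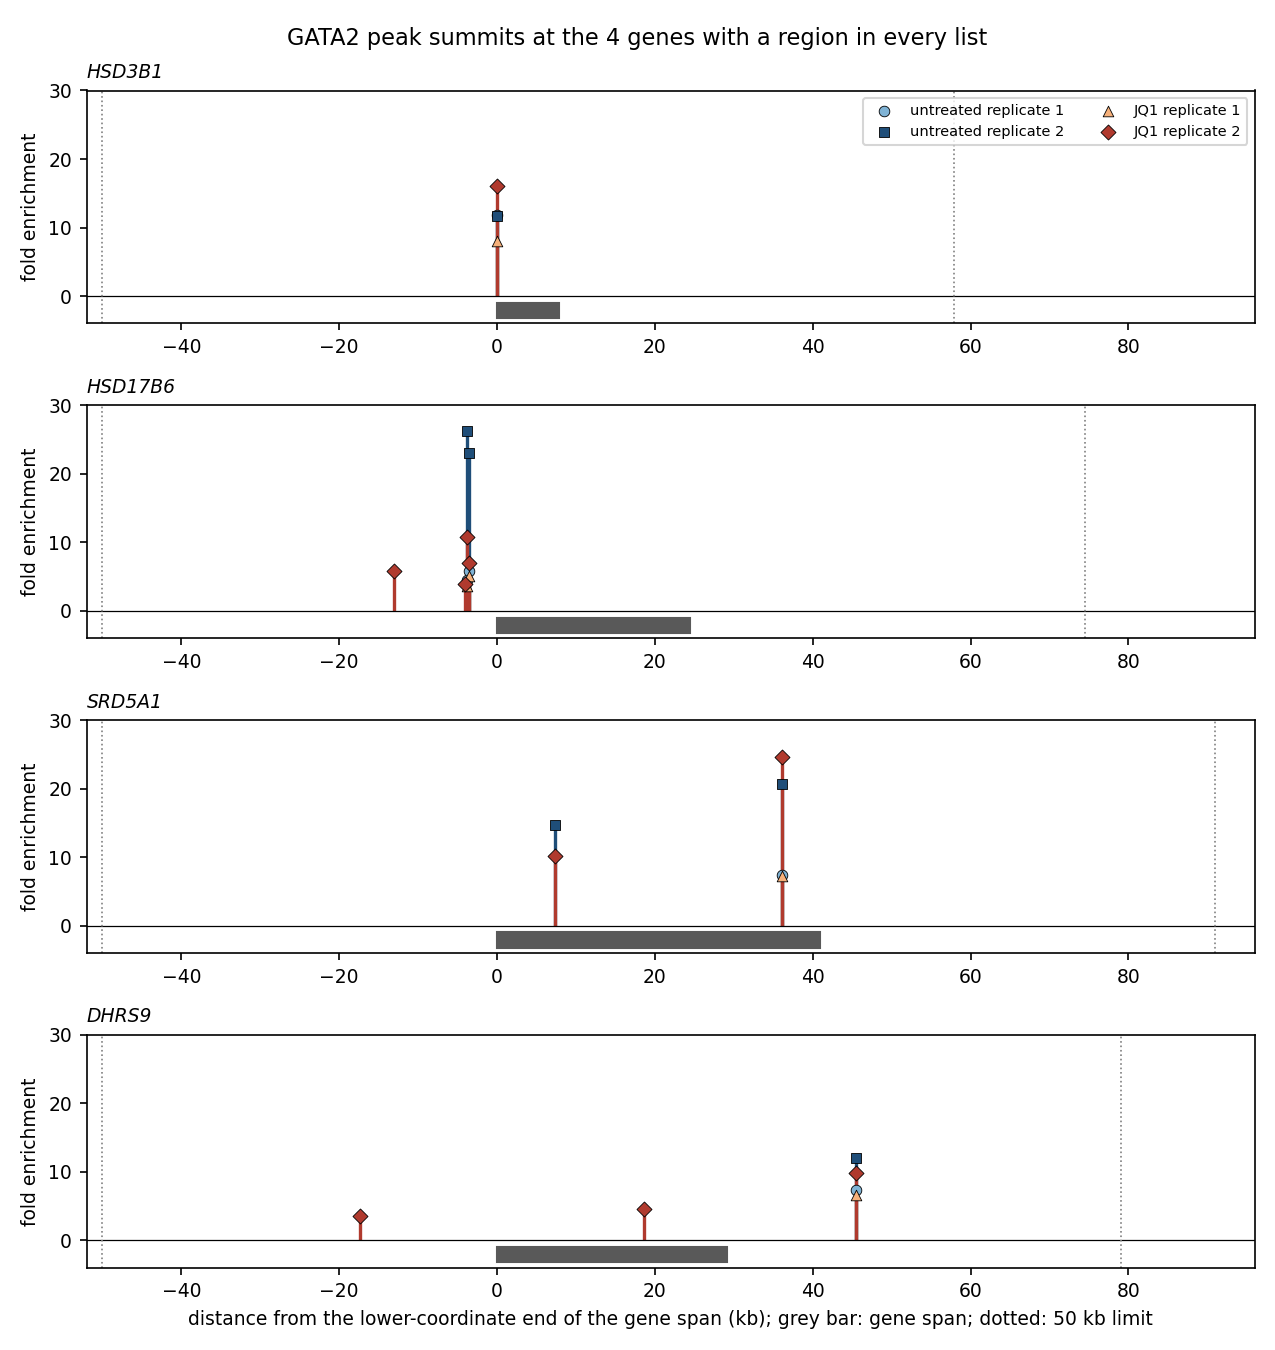
Fold enrichment (vertical axis, linear) of each peak summit at the 4 genes with a region in every list, by distance in kb from the lower-coordinate end of the gene span (grey bar). The HSD17B6 summits reach 26.2 in untreated replicate 2 and 10.8 in JQ1 replicate 2, and the far SRD5A1 region reaches 20.7 and 24.7.

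SRD5A2, the reductase of normal prostate, had 1 weak region in 1 list. In JQ1 replicate 2 a summit lay 41.9 kb beyond the upper end of its span, chr2:31522480-31663009, and 124 kb before its annotated start on the minus strand. Its fold was 4.54 and it stood in the top 88.5% of that list. The nearest summit of untreated replicate 2 was just past the limit at 53.8 kb, with a −log10 q of 48.0. The nearest region of all lists was 99.2 kb away.

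DHRS9 had 1 region in every list, placed beyond the gene. The gene covers chr2:169067077-169096167 on the plus strand, and the region, chr2:169112388-169112669, lay 16.4 kb past its end. It was closer to LRP2, an endocytic receptor gene, at 14.6 kb. Its fold was 7.40 and 12.1 untreated and 6.61 and 9.81 with JQ1, and its −log10 q was 11.5 and 35.9 untreated and 9.06 and 24.5 with JQ1. The log2 ratios of −0.16 and −0.30 lay near the middle of the common regions, of which 49.6% and 42.4% had a lower ratio. A further 2 regions, 1 inside the gene and 1 at 17.4 kb before it, were in JQ1 replicate 2 alone, with folds of 4.57 and 3.51. The latter was nearly as close to ABCB11, a bile salt pump gene, at 18.4 kb.

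**Figure D4:**
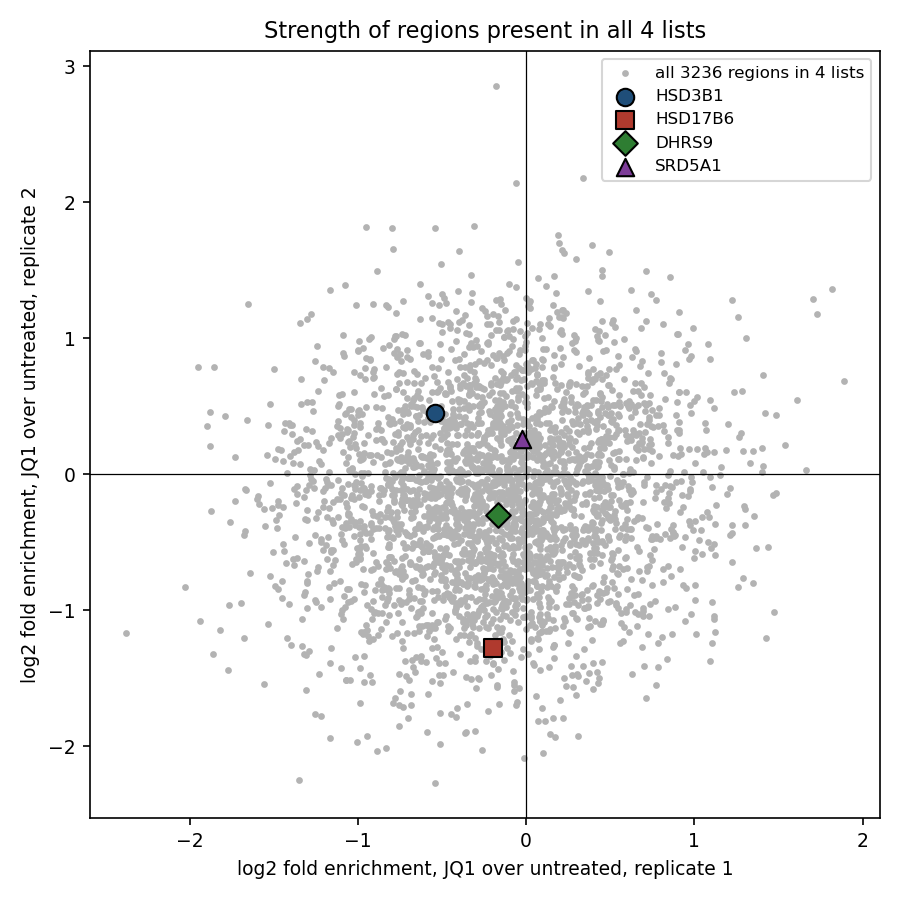
Log2 ratio of fold enrichment, JQ1 over untreated, in replicate 1 (horizontal) and replicate 2 (vertical) for the 3236 regions present in all lists (grey), with the 4 regions of the enzyme genes marked. HSD17B6 lies low at −1.28 in replicate 2, DHRS9 is negative in both, and HSD3B1 changes sign between replicates.

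The AKR1C genes, which lie side by side on chromosome 10, had few GATA2 peaks. AKR1C1 (chr10:4963415-4983283) and AKR1C2 (chr10:4987775-5018000) had none within 50 kb in any list. AKR1C3 (chr10:5048781-5107686) had 1 region, chr10:5093557-5093855, inside the gene and in both replicate 2 lists. Its fold was 5.20 untreated and 3.83 with JQ1, low in each list at the top 86.0% and 87.4%. The best summit lay 657 bp before the second of its annotated starts. The nearest region common to all lists was 227 kb from AKR1C1, 251 kb from AKR1C2 and 312 kb from AKR1C3.

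Upstream sequences of AKR1C1 and AKR1C2 are shown because reads that fall inside a shared run match both copies. They run 5′ to 3′ on the strand of each gene, plus for AKR1C1 (chr10:4963165-4963414) and minus for AKR1C2 (chr10:5003858-5004107). The window before the second AKR1C3 start (plus strand, chr10:5094164-5094413) is added as the nearest to a peak. Capitals are as for HSD3B1.
AKR1C1: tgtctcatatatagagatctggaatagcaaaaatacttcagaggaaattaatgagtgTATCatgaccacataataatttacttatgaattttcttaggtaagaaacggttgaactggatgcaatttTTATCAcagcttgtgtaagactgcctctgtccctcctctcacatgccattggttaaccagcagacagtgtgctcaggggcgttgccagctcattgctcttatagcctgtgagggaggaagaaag
AKR1C2: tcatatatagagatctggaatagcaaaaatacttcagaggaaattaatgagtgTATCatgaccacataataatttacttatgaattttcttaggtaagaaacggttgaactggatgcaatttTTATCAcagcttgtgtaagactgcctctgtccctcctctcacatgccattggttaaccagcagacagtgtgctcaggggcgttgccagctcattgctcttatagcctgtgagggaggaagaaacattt
AKR1C3: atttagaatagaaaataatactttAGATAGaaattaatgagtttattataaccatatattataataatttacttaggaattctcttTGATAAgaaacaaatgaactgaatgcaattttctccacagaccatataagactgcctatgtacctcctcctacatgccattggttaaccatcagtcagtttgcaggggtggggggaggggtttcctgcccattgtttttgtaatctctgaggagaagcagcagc

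The AKR1C1 and AKR1C2 windows shared an unbroken run of 245 bases. Of 226 words of 75 bases in the 300 bases around the AKR1C1 start, 171 were also present around the AKR1C2 start. Each window held TGATAA on the other strand, at −124 to −119 and at −128 to −123. How reads with several matches were treated is not given in the sources used here, and its part in the empty AKR1C1 and AKR1C2 loci was not tested. The second AKR1C3 window shared no run over 19 bases with AKR1C1. It held AGATAG as well as TGATAA, whose centres were 433.5 and 495.5 bp from the summit of untreated replicate 2 and 524.5 and 586.5 bp from that of JQ1 replicate 2.

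CYP17A1, the source of DHEA, had no peak within 50 kb in any list. It lies on the minus strand at chr10:102830531-102837413. Its nearest summits were 217 and 60.6 kb away untreated and 317 and 60.6 kb away with JQ1, and those of replicate 2 were the same site in both lists. The window before its start held AGATAA at −69 to −64. Just outside the limit there was also a summit 56.6 kb from AKR1C1 in untreated replicate 2, against 60.7 kb in JQ1 replicate 2. Over all 10 genes the median distance to the nearest summit was 91.7 and 18.0 kb untreated and 91.7 and 11.6 kb with JQ1. Over all coding genes it was 165 and 39.7 kb untreated and 265 and 32.6 kb with JQ1. The distances of the 10 genes are not independent, since neighbours shared nearest summits. In both replicate 1 lists HSD3B2 took the summit at the HSD3B1 start, and AKR1C1 and AKR1C2 shared another.

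**Figure D5:**
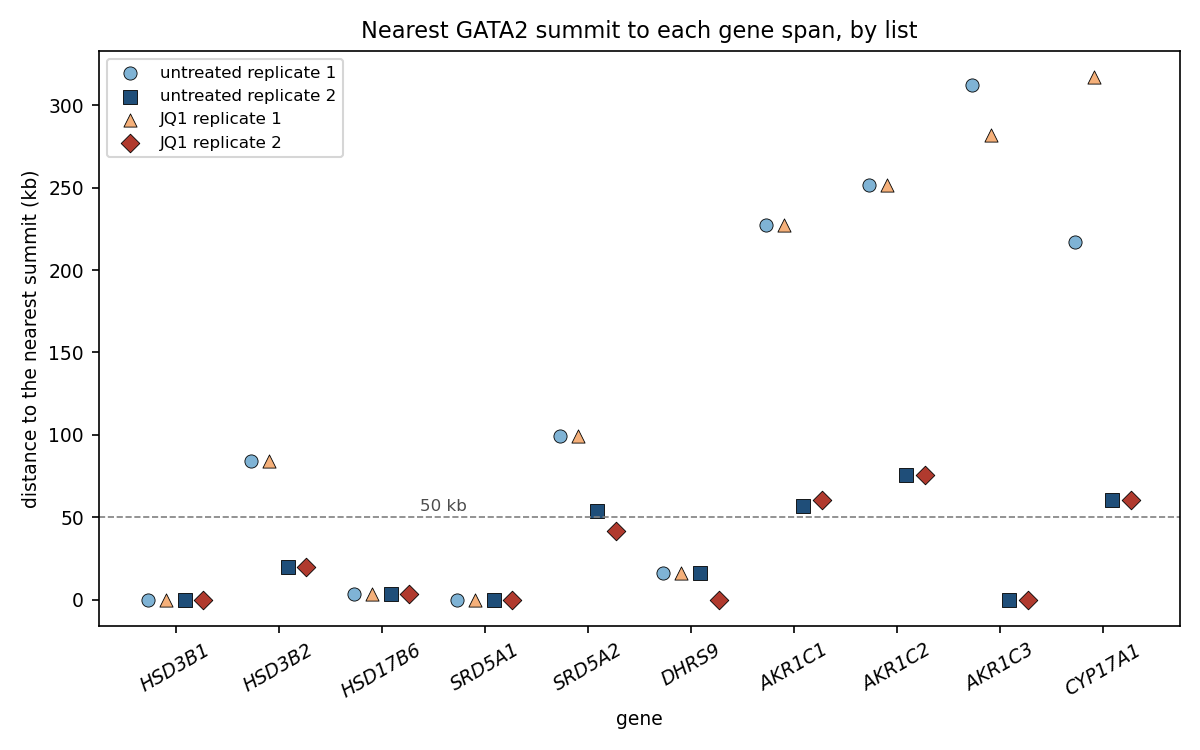
Distance in kb (linear axis) from each gene span to the nearest summit in each list, with the 50 kb limit dashed. Summits of all 4 lists lie within the limit at HSD3B1, HSD17B6, SRD5A1 and DHRS9, and none does at AKR1C1, AKR1C2 and CYP17A1.

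Whether the enzyme genes gained or lost GATA2 sites with JQ1 was asked by presence and by number. Of the 12 regions, 4 were in all lists, against 8.96% of all regions. Another 4 were in both replicate 2 lists alone (38.0% of all regions) and 4 in JQ1 replicate 2 alone (25.9%). None was in both untreated lists and no JQ1 list, or the reverse, classes that held 0.620% and 0.377% of all regions. By gene, HSD3B1, HSD17B6, SRD5A1 and DHRS9 had a region in all lists, against 13.6% of coding genes. The same 4 were the ones with a region in both untreated lists (24.3% of coding genes) and in both JQ1 lists (17.8%). In both replicate 2 lists, 6 of the 10 genes shared a region, against 49.0% of coding genes. A peak of any kind was found at 4 genes in untreated replicate 1 (25.7% of coding genes), 6 in untreated replicate 2 (54.6%), 4 in JQ1 replicate 1 (18.2%) and 7 in JQ1 replicate 2 (58.2%). The 7 genes with a peak in some list compare with 62.6% of coding genes. With lists cut to their best 4974 peaks, SRD5A1 alone had a region in every list.

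Peaks of these genes numbered 7 ± 2.83 (SD, n = 2) untreated and 9.5 ± 6.36 (SD, n = 2) with JQ1. The difference of the mean log2 numbers, JQ1 minus untreated, was 0.32, within the spread between replicates (two-sided exact permutation p = 1). It was 0 in replicate 1 and 0.64 in replicate 2. Per 1000 peaks of the list, untreated values were 0.724 and 0.329, JQ1 values 1.01 and 0.432, with a difference of mean log2 values of 0.43 (two-sided exact permutation p = 0.667). Adjusted over these 2 tests by the Benjamini-Hochberg method both were 1, and with 2 lists against 2 the smallest exact p is 0.333, so 0.05 could not be reached. By number the surplus lay in JQ1 replicate 2, the longest list. Per 1000 peaks, JQ1 was above untreated in both replicates, with log2 ratios of 0.47 in replicate 1 and 0.39 in replicate 2. The 4 regions seen in JQ1 replicate 2 alone had folds of 3.51 to 5.83.

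Among 45 other genes of steroid synthesis, conversion and inactivation, 11, or 24.4%, had a region in all lists (13.6% of coding genes). These 11 genes had 10 distinct regions of this kind. They were the dehydrogenase genes HSD17B11, HSD17B12 and HSD11B1, the reductase gene POR, which feeds electrons to CYP17A1, and genes of sulfate transfer and removal (SULT1E1, PAPSS2 and STS). The rest were CYP3A4, CYP3A5, CYP3A7 and CYP3A43, neighbouring cytochrome genes of steroid hydroxylation that shared 2 regions. None of the 45, and none of the 10 enzyme genes, had a region in both untreated lists and no JQ1 list, or the reverse, against 1.24% and 0.719% of coding genes. The region inside HSD17B12 had a fold of 17.5 and 28.5 untreated and 9.45 and 23.0 with JQ1. That inside POR had 8.80 and 14.0 untreated and 5.61 and 19.8 with JQ1.

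Regions in both untreated lists were found at 16 of the 45 genes (35.6%, against 24.3% of coding genes). Regions in both JQ1 lists were found at 12 (26.7%, against 17.8% of coding genes). H6PD, HSD11B2, HSD17B2, HSD3B7 and RDH5 had the former without the latter, and at each of these places JQ1 replicate 2 had a peak while JQ1 replicate 1 lacked one. HSD17B4 had a region in both JQ1 lists and in untreated replicate 2. STAR, which carries cholesterol into mitochondria, and CYP11A1, which cleaves its side chain, had no peak within 50 kb in any list. They shared this with AKR1C1, AKR1C2 and CYP17A1 and were among 13 of the 45. The others were AKR1C4, CYP11B1, CYP11B2, CYP1B1, CYP21A2, DHRS11, FDXR, HSD17B1, HSD17B7, HSD17B10 and HSD17B14. Of all coding genes, 62.6% had a peak within 50 kb in some list, so a gene without one was not unusual. The pattern of HSD3B2 and AKR1C3, peaks in both replicate 2 lists alone, was shared by 12, among them CYB5A, the cytochrome partner of CYP17A1, SRD5A3, AKR1D1, CYP19A1, which is the aromatase gene, CYP7B1, FDX1, HSD17B8, HSD17B13, RDH11, RDH16 and SULT2B1. SULT2A1, which sulfates DHEA, had peaks in JQ1 replicate 2 alone, as did SRD5A2. How many of all coding genes had either pattern was not counted.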

How the data were processed

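GATA2 ChIP-seq peak lists of 2 untreated and 2 JQ1-treated VCaP samples were used. The tools named in the submitters' processing notes are Bowtie2, Picard and MACS2, and the build is hg38. Each list belongs to 1 precipitate, per the labels. The deposited lists give, from the authors' peak caller, a fold enrichment (a linear ratio), −log10 p- and q-values and a score, which was not used. They hold no read totals, so the depth behind a peak is unknown and no counting interval is given.

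Lines outside chromosomes 1 to 22, X and Y were left out (10 of JQ1 replicate 1, 8 of untreated replicate 2). Each line counted as a peak, and intervals overlapping by at least 1 bp were merged (Python 3.11.15, pandas 2.3.3). Merging and gene assignment were tested on simulated lists of well separated regions with a single peak per list. Intervals with several summits or chained overlaps were not simulated. Gene spans, starts and upstream sequences came from RefSeq (GRCh38.p14), the latter matching 9 of the 10 genes. HSD17B6 was the other. Peak numbers were compared by a two-sided exact permutation test. The genes and lists were chosen with earlier results of these data known. All 10 genes are named, with their regions in all lists or in both lists of a treatment in full. Of the wider list, genes with a region in all lists or in both lists of 1 treatment only are named, as are genes sharing the presence of a member, except 1 that is not reported here. Regions in replicate 2 alone are given by range or, where described singly, were chosen after their values were seen. Alternatives were the window, a q limit, lists of equal length, a reciprocal overlap, leaving out a replicate and a replicate block.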

Additional observations from a re-analysis of the deposited data

How the results depend on the processing

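The 4 genes with a region in every list were the same ones with a q of 1e-05 or less and with a reciprocal overlap of 50%. With 10 kb DHRS9 dropped out, leaving 3, and with 100 kb HSD3B2 and SRD5A2 joined, making 6. HSD3B2 joined through the region at the HSD3B1 start, 84.1 kb from its own span, so these 6 genes had 5 regions. With lists of equal length, the difference of mean log2 peak numbers, JQ1 minus untreated, turned to −1, both as a number and per 1000 peaks. It came from replicate 2, with 4 peaks untreated and 1 with JQ1, against 5 and 5 in replicate 1. There the regions and the genes in all lists fell to 1, those in both untreated lists to 2 and those in both JQ1 lists to 1, as fewer peaks were kept. With a q of 1e-05 or less the difference was 0 as a number and 0.18 per 1000 peaks. Without replicate 1 or without replicate 2, regions in every remaining list numbered 4 to 8, those in the untreated list 4 to 8, those in the JQ1 list 4 to 12 and those in the JQ1 list alone 0 to 4. Genes with a region ran from 4 to 6 untreated and in both treatments and from 4 to 7 with JQ1. The differences ran from 0 to 0.64, and from 0.39 to 0.47 per 1000 peaks. Over 2773 bins of 1 Mb, deviations of log2 peak numbers from the treatment mean correlated between same-numbered lists (r = 0.49). The numbers were not scaled to list length and both replicate 2 lists were longer, so this r cannot show a pairing. By the labels, same-numbered lists share only a number. With the replicate block the differences were 0.32 (exact sign-flip p = 1) and 0.43 (exact p = 0.5, the smallest possible). Counting each interval once, an alternative chosen after seeing the data, gave 0.29 and 0.41. List length limits absence from replicate 1.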

Other observations

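HSD3B1 belonged to a small set of genes with GATA2 on the sequence just before an annotated start. The summit of a region common to all lists fell within the 250 bases before 14 starts of 13 coding genes. Besides HSD3B1, with 2 starts, these were ADD3, DDX41, DNAH5, GPR137, NEDD4L, RANBP2, RNF220, SRI, STK40, THSD4, TMPRSS11F and ZG16B. NEDD4L codes for a ubiquitin ligase, DNAH5 for a ciliary dynein and RANBP2 for a nuclear pore protein. A summit of any list fell in 93 windows of 92 genes, of which 66.7% held a 6-letter GATA motif.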
